A study of Rattus norvegicus with 6 samples.

Results

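The mRNAs described here encode the proteins that bring glucose into a beta-cell and carry its carbon through glycolysis, pyruvate entry into the mitochondrion, the citric acid (TCA) cycle and the shuttles that move reducing equivalents between cytosol and mitochondrion. They were taken by a list of 43 gene names, and a gene was kept when the 6 lines averaged 5 or more normalized counts. Rows were found for 41 of the 43 names, and all 41 reached that average, as did 15579 of the 32900 rows in all. The other 2 names, G6pc2, the islet glucose-6-phosphatase catalytic subunit, and Ogdh, the E1 subunit of 2-oxoglutarate dehydrogenase, were not analysed here. The rule uses names and the mean level over all lines, not the difference between the groups.

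Total RNA, depleted of rRNA, was sequenced from INS-1, a rat insulinoma beta-cell line, grown in 7.5 mM glucose. All 6 lines carry a deletion of the imprinted Prader-Willi syndrome (PWS) domain on the silent maternal allele, together with a human INS-neoR and a mouse Ins2-C-mCherry transgene. The 3 Control lines, 5-9, 2 and 16, have that deletion only, whereas the 3 PWS lines, 3, 19-1 and 19-4, carry the deletion on both alleles. The lines are related by descent: 5-9 is the parent of the others, 2 and 16 are clones of 5-9 that received a control EGFP vector instead of the CRISPR/Cas9 vector, and 19-1 and 19-4 are subclones of line 19, so that the 3 PWS lines stand for 2 clones. By FISH, the study describes the deletions as present in most cells of lines 16, 3 and 19-1 and in virtually all cells of lines 2 and 19-4. There is 1 library per line, and p-values therefore measure the spread between these related lines, not between independent animals.

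In a beta-cell, glycolysis and the TCA cycle are part of the signal that releases insulin. Glucose enters by facilitated transport and is phosphorylated, and the rate of its breakdown sets the ATP to ADP ratio that closes the ATP-sensitive potassium channel and opens voltage-gated calcium channels. Beta-cells send most pyruvate into the mitochondrion, either through pyruvate dehydrogenase to acetyl-CoA or through pyruvate carboxylase to oxaloacetate, and cytosolic NADH is re-oxidised through the malate-aspartate and glycerol-phosphate shuttles because lactate formation is low.

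Between 26016478 and 36084261 reads were counted per line, with reads that align to more than 1 feature counted at each. The values below are normalized counts, that is, reads divided by the size factor of the library, and they are given for Control lines 5-9, 2 and 16 and for PWS lines 3, 19-1 and 19-4, always in that order. Values of different genes cannot be ranked, since transcript lengths were not available to divide by. Snrpn, a gene of the deleted domain, was at 3149 to 3956 normalized counts in the Control lines and at 0 to 3.64 in the PWS lines. All 10 beta-cell markers examined were expressed in every line, and their summed level was 580453 to 640092 normalized counts in Control and 314538 to 546886 in PWS lines, without overlap, with line 19-4 the lowest. That sum comes almost wholly from Ins1, Iapp and Chga, with log2 fold changes of -0.57, -0.64 and -0.12. With 1 line left out, these ran from -0.80 to -0.36, from -0.83 to -0.39 and, through 0, from -0.23 to 0.063. Of the 10 markers 8 were below 0, and 2, Nkx2-2 and Mafa, were above. Ins2 had the lowest value (-0.99), the groups do not overlap for Ins1 and Iapp, and none of the 10 passed an adjusted p of 0.05 under limma. Sst, the delta-cell hormone, Irx2, an alpha-cell transcription factor, Pnlip, pancreatic lipase, and Dcn, a fibroblast proteoglycan, had no read in any line. Among the other marker lists, the alpha-cell sum, nearly all from Gc, was 17734 to 22477 in Control and 14827 to 22457 in PWS lines, while Gcg alone was at 19.0, 0 and 13.4 in Control and 15.3, 13.2 and 100.01 in PWS lines, with line 19-4 the highest. The exocrine sum was 1888 to 2876 and 1654 to 2133. The fibroblast sum, nearly all Pdgfra, was 139.6 to 166.4 in Control and 50.005 to 132.7 in PWS lines, which do not overlap, and delta and pancreatic polypeptide cell genes reached at most 13.6. In bulk RNA, fewer cells that express a gene and less RNA per cell cannot be told apart, and the part of these differences in the values below was not tested.

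Each gene was tested by limma on log2(normalized count + 1) over all 15579 genes with Benjamini-Hochberg adjustment. None of the 41 members passed an adjusted p of 0.05, where 0.257% of all tested genes did. Their adjusted p-values lay between 0.285 and 0.997. On the recovered reads, edgeR's quasi-likelihood test, which called 0.205% of all genes, and DESeq2, which called 1.46%, also called 0 members. At an unadjusted p of 0.05, 5 members (12.2%) passed under limma, against 11.3% of all tested genes, and edgeR and DESeq2 each gave 5 as well. Of the 5, Idh1 and Gpd1 had higher means in PWS lines and Mpc1, Aldoc and Pdha1 lower ones. The share lies near the background, so the count says nothing particular to these genes. With lines 19-1 and 19-4 averaged into 1 sample, 4 of the 5, all but Aldoc, still had an unadjusted limma p under 0.05.

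The values of the 2 groups did not overlap for 1 member that was higher in every PWS line, Idh1 (8.43% of all genes), and for 3 that were lower, Aldoc, Mpc1 and Pdha1 (9.01% of all genes). With groups of 3 lines a single gene cannot reach an exact two-sided permutation p below 0.1. The median log2 fold change of the 41 members was -0.030, beside -0.0028 for all tested genes, with 15 members above 0 and 26 below.

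The intervals around the fold changes were narrow for most members. For 38 of 41 the 95% interval of the log2 fold change lay within 0.5 of 0 on either side, whereas this held for 59.1% of all tested genes. The exceptions were Aldoc, Idh1 and Gpd1. The median half-width of the interval was 0.20 for the members and 0.28 for all tested genes, and 27 members (65.9%) had a log2 fold change under 0.1 in size, as did 43.9% of all tested genes. For 76 further pathway genes, described below, the median half-width was 0.22. Of these, 73.7% had an interval within 0.5 of 0, and 43.4% a log2 fold change under 0.1 in size. Aldoc had the lowest mean of the members, 148 normalized counts, whereas tested genes include far lower means, such as Eno4 at 5.62. The part of count level in these shares was not tested. When 1 line was left out in turn, the sign of the log2 fold change turned for 18 of the 41 members, all of them 0.14 or less in size.

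**Figure D1:**
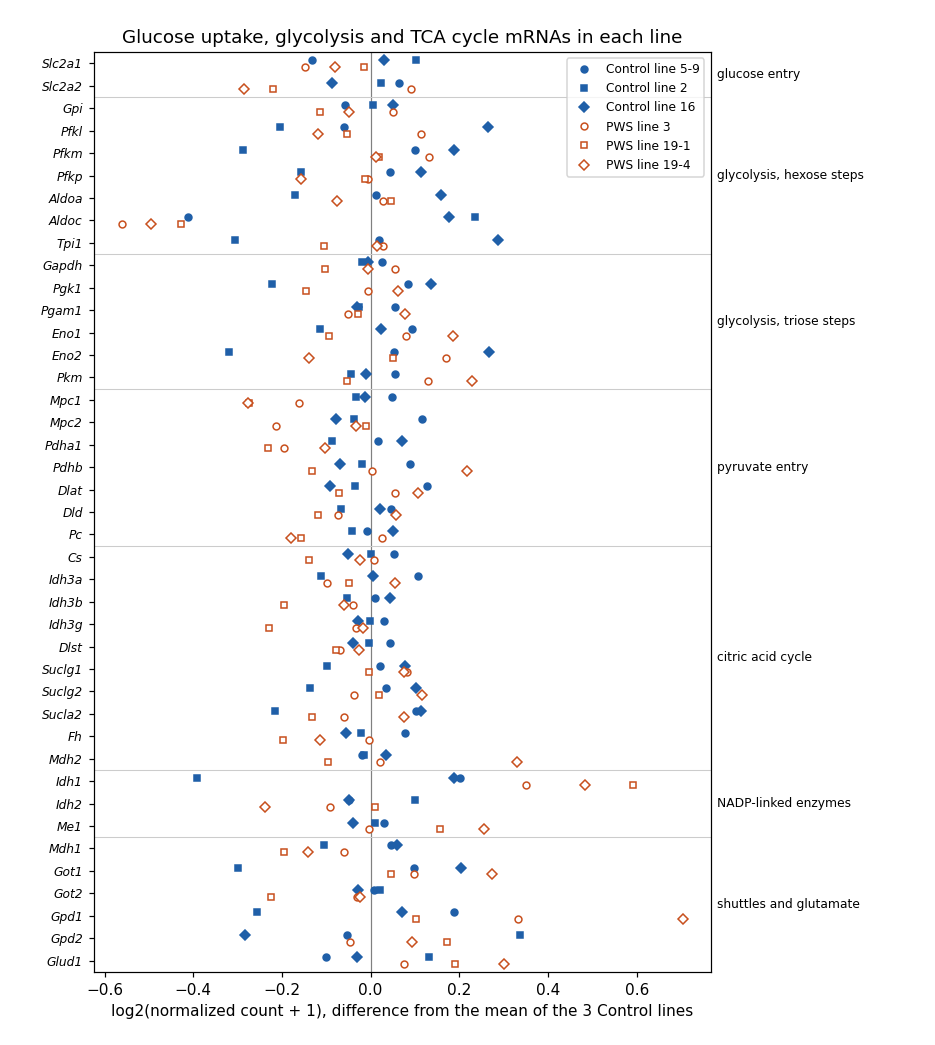
Each row is 1 of the 41 members, grouped by role, and each symbol is 1 line: filled blue for Control, open orange for PWS. The horizontal axis is log2(normalized count + 1) minus the mean of the 3 Control lines. In most rows both colours are mixed around 0, and the symbols separate without overlap only for Aldoc, Mpc1, Pdha1 and Idh1.

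Glucose entry is represented by the facilitative transporters Slc2a1 (GLUT1) and Slc2a2 (GLUT2), the latter being the main glucose transporter of rodent beta-cells. Slc2a2 had 14647, 14227 and 13186 normalized counts in the Control lines and 14922, 12025 and 11498 in the PWS lines (log2 fold change -0.14, SE 0.11, adjusted p = 0.665). PWS line 3 was the highest of all 6 lines and the subclones 19-1 and 19-4 were the lowest, so the groups overlap and the PWS values divide by clone. Without line 3 the log2 fold change was -0.25, and without line 19-4 it was -0.064. Slc2a1 had 1083, 1275 and 1212 in Control and 1072, 1175 and 1123 in PWS lines (log2 fold change -0.081, SE 0.084, adjusted p = 0.763). Control line 5-9 was nearly as low as PWS line 3, the groups overlap, and the log2 fold change ran from -0.15 without line 5-9 to -0.03 without line 2. The ratio of Slc2a1 to Slc2a2 normalized counts was 0.0740, 0.0896 and 0.0919 in Control and 0.0718, 0.0978 and 0.0977 in PWS lines, again with line 3 apart from both subclones.

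In the hexose steps of glycolysis, glucose 6-phosphate is isomerised by Gpi, phosphorylated by phosphofructokinase (Pfkl, Pfkm and Pfkp), split by aldolase (Aldoa and Aldoc) and the 2 triose phosphates are interconverted by Tpi1. Of these 7 members, 6 had a log2 fold change under 0.1 in size, and Aldoc carried the lowest value of all 41 members. Gpi, which the study used to normalise its RT-droplet digital PCR, had 8355, 8732 and 9009.6 normalized counts in Control and 8999, 8029.5 and 8409 in PWS lines (log2 fold change -0.038, SE 0.07, adjusted p = 0.882). The PWS lines fell within or just below the Control range, and the 95% interval ran from -0.20 to 0.12.

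Pfkm, the muscle-type phosphofructokinase subunit, had the highest fold change of this step. Its values were 5118, 3909 and 5435 in Control and 5225, 4833 and 4810.4 in PWS lines (log2 fold change 0.053, SE 0.12, adjusted p = 0.908). The 3 PWS values lay between Control line 2, the lowest, and Control line 16, the highest, and without line 2 the sign turned (-0.091). Pfkl, the liver-type subunit, and Pfkp, the platelet-type subunit, had log2 fold changes of -0.019 and -0.058, and Aldoa and Tpi1 had -0.00099 and -0.021, with the groups overlapping for each.

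Aldoc, the brain-type aldolase, was detected at 128, 201 and 193 normalized counts in Control and 115, 127 and 121 in PWS lines (log2 fold change -0.49, SE 0.19, 95% interval -0.92 to -0.064, adjusted p = 0.392). Control lines 2 and 16 were high, whereas Control line 5-9, the parent, was at the level of the PWS lines and exceeded the highest of them, 19-1, by little. The group means were 174 ± 40.0 and 121 ± 5.70 (SD, n = 3). Without line 5-9 the log2 fold change was -0.70.

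The promoters of 3 members are shown because they stand for the lowest fold change (Aldoc), the highest (Idh1) and the gene the study used as a control (Gapdh). They are RefSeq sequences of build GRCr8, which is not the build of the count tables, with 250 bases before and 50 after the annotated start, on the gene's strand. Capitals mark ACGTG or its reverse complement CACGT, the core letters of a hypoxia response element, the site at which HIF-1 binds in glycolytic gene promoters.
Aldoc, chr10:63715294-63715593, plus strand: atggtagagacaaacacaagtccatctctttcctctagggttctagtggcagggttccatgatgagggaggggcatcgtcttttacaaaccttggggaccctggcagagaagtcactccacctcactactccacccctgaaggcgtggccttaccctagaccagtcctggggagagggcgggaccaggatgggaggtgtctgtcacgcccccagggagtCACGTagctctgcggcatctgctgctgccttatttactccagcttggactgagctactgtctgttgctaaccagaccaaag
Gapdh, chr4:159652418-159652717, minus strand: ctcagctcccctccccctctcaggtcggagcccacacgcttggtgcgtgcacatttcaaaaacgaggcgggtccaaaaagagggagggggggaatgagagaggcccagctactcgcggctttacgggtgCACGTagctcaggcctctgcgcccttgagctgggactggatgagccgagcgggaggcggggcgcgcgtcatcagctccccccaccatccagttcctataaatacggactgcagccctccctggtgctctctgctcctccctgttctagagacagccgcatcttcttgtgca
Idh1, chr9:74049425-74049724, minus strand: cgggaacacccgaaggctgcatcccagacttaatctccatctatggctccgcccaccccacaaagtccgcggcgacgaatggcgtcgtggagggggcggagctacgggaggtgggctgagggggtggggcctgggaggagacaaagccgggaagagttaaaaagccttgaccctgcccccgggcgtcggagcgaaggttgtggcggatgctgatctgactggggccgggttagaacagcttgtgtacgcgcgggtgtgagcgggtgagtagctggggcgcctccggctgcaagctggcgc
Aldoc and Gapdh each hold 1 match and Idh1 holds 0.

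Promoters were matched by symbol for 37 of 41 members, 12 of them among the 13 glycolysis genes. ACGTG, on either strand, was present in 8 of the 12, namely Aldoa, Aldoc, Eno1, Eno2, Gapdh, Gpi, Pfkm and Pgam1, and in 5 of the other 25 members (Dlat, Fh, Idh3g, Pdhb and Slc2a1), beside 20.9% of all 27457 symbols and 26.4% of the 9817 symbols that were matched among the tested genes. The E-box CACGTG, which contains ACGTG, was in 0 of the 12 and 1 of the 25 (9.80% of tested symbols). GGGCGG, the GC box read by Sp1, was in 10 and 17 (64.6%), GCGTG in 6 and 14 (51.7%), and CCAAT in 5 and 12 (39.1%). TATAAA was in 1 and 2 (7.01%), AAGGTCA in 1 and 1 (3.07%), and TGACTCA in 1 and 2 (3.43%). These 8 motifs were searched on both strands and chosen with the expression results known. A match describes letters in a window and does not show that a factor binds there.

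In the triose steps, Gapdh oxidises glyceraldehyde 3-phosphate, Pgk1 makes the first ATP, Pgam1 and the enolases Eno1 and Eno2 lead to phosphoenolpyruvate, and Pkm makes pyruvate. All 6 had log2 fold changes between -0.030 and 0.10, and the groups overlap for each. Gapdh had 26519, 25719 and 25949 normalized counts in Control and 27084, 24278 and 25966 in PWS lines (log2 fold change -0.017, SE 0.075, adjusted p = 0.954). Its 3 Control values lay close together, PWS line 3 was above them and line 19-1 below. The 95% interval of the Gapdh fold change ran from -0.19 to 0.15 on the log2 scale.

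The primers with which the study measured Gapdh and Gpi by RT-droplet digital PCR are shown because Gpi was its reference and Gapdh a control gene. The RNA-seq values above are a separate measure of both transcripts. Each pair spans a splice junction.
Gapdh exon 4 forward: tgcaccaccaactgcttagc
Gapdh exon 4/5 reverse: ggcatggactgtggtcatga
Gpi exon 13/14 forward: caccaaggcaccaagatgatac
Gpi exon 14/15 reverse: aggaggatcttgtgatgcagac

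Pkm had the highest fold change of the triose steps, with 15059, 14063 and 14377 normalized counts in Control and 15852, 13965 and 16989.7 in PWS lines (log2 fold change 0.10, SE 0.087, adjusted p = 0.701). PWS lines 3 and 19-4 lay above every Control line and line 19-1 below every one, so that both extremes were PWS lines. The log2 fold change of Pkm was 0.18 without line 19-1 and 0.038 without line 19-4. Pgk1 had the lowest, with 11339, 9166 and 11756 and 10647, 9657 and 11161 (log2 fold change -0.03, SE 0.11, adjusted p = 0.944). Control line 2 was the lowest of the 6 lines for Pgk1 and Control line 16 the highest. Pgam1, Eno1 and Eno2 had log2 fold changes of -0.00081, 0.057 and 0.027.

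The spread of the glycolysis genes within each group differed by step. For the 7 hexose-step members the median SD on the log2 scale was 0.24 among Control lines and 0.074 among PWS lines, whereas for the 6 triose-step members it was 0.078 and 0.12, beside 0.14 and 0.13 for all tested genes. Because 19-1 and 19-4 are subclones of the same line, the Control and PWS spreads are not between equally related lines. Of the 13 members, 8 varied more among the Control lines and 5, Gpi, Gapdh, Pgam1, Eno1 and Pkm, more among the PWS lines. Control line 2 was the lowest Control line for 10 of the 13, where it was the lowest for 38.5% of all tested genes, and line 16 was the highest for 8 of the 13 (32.8% of all tested genes). Relative to the Control mean, the median of the 13 genes was 0.044 in line 5-9, -0.16 in line 2 and 0.14 in line 16, and 0.050, -0.054 and -0.0052 in PWS lines 3, 19-1 and 19-4. The medians of all tested genes lay within 0.0035 of 0 in each line. Among the 28 other members line 2 was the lowest Control line for 13. Over the 76 tested pathway genes outside the members, line 2 was the lowest Control line for 33 and line 16 the highest for 23, and single lists went either way: line 2 was the lowest for 8 of 11 glycogen genes and the highest for 6 of 7 genes of pyruvate dehydrogenase regulation. This pattern was noticed in the values and was not tested. Line 2 was not the lowest Control line for Aldoc, Gpi and Pgam1, and line 16 was not the highest for Aldoc, Gapdh, Pgam1, Eno1 and Pkm.

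**Figure D2:**
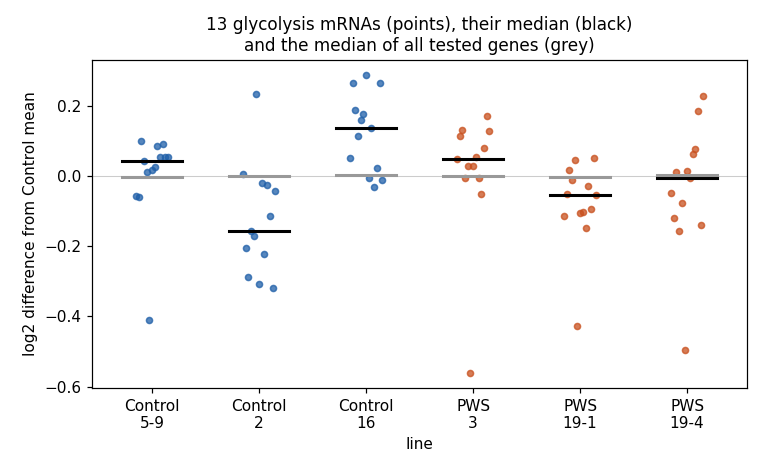
Each blue or orange point is 1 of the 13 glycolysis members in 1 line, as the log2 difference from its Control mean (vertical axis), with the lines on the horizontal axis; the black bar is the median of the 13 and the grey bar that of all tested genes. Control lines 2 and 16 lie on opposite sides at -0.16 and 0.14, and the 3 PWS lines lie between them.

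Pyruvate enters the mitochondrion through the carrier formed by Mpc1 and Mpc2 and is converted by the pyruvate dehydrogenase complex (E1 subunits Pdha1 and Pdhb, E2 Dlat, E3 Dld) or by pyruvate carboxylase (Pc). Mpc1 had the lowest unadjusted p of the 41 members. It stood at 2381, 2249.8 and 2282 normalized counts in Control and 2060.2, 1906 and 1903 in PWS lines (log2 fold change -0.24, SE 0.066, 95% interval -0.39 to -0.084, adjusted p = 0.285). Every PWS line was below every Control line, and the fitted decrease was 15.1%. Leaving out any 1 line moved the log2 fold change between -0.27 and -0.21.

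Mpc2, the obligate partner of Mpc1 in the carrier, did not show the same separation, with a log2 fold change of -0.086 (SE 0.095). Leaving out any 1 line moved that value between -0.12 and -0.022. The ratio of Mpc1 to Mpc2 was 3.34, 3.51 and 3.66 in Control and 3.63, 2.92 and 2.96 in PWS lines, where line 3 was at the Control level and both subclones of line 19 below it.

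Pdha1, the catalytic alpha subunit whose phosphorylation switches the complex off, had 5722, 5320.3 and 5938 normalized counts in Control and 4937, 4814 and 5269 in PWS lines (log2 fold change -0.18, SE 0.071, 95% interval -0.34 to -0.015, adjusted p = 0.418). The groups do not overlap, but the highest PWS line, 19-4, was close to the lowest Control line, 2. Only 59.3% of the Pdha1 reads were unique to it, and with unique reads alone the log2 fold change was -0.23. Pdhb, the partner E1 subunit, had 0.03, and Dlat, the E2 subunit, had the highest value of this step, with 1116, 997 and 958 in Control and 1062, 972 and 1099 in PWS lines (log2 fold change 0.03, SE 0.088, adjusted p = 0.930). For Dlat the groups overlap fully. The ratio of Pdha1 to Pdhb was 2.21, 2.21 and 2.55 in Control and 2.02, 2.16 and 1.86 in PWS lines, so that each PWS line was below each Control line, with 19-1 nearest to the Control lines. Dld, shared with the other 2-oxo acid dehydrogenases, had -0.045, and Pc, the anaplerotic enzyme, had -0.10 (adjusted p = 0.651).

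The 10 TCA cycle members, from citrate synthase to mitochondrial malate dehydrogenase, lay between -0.11 and 0.085 on the log2 fold change scale, 7 below 0 and 3 above, with a median of -0.045. The groups overlap for all 10, and each of the 10 intervals lay within 0.5 of 0. Fh, fumarase, was the lowest, with 2902, 2706 and 2647 normalized counts in Control and 2740.1, 2398 and 2538 in PWS lines (log2 fold change -0.11, SE 0.075, adjusted p = 0.635). Lines 19-1 and 19-4 were below every Control line, whereas line 3 was above 2 of them, and the log2 fold change was -0.06 without line 19-1 and -0.067 without line 5-9. Mdh2, mitochondrial malate dehydrogenase, was the highest, with 4875, 4893 and 5059 and 5016, 4625 and 6211 (log2 fold change 0.085, SE 0.11, adjusted p = 0.806). That value came from line 19-4, which stood above the other 5 lines, and without it the log2 fold change was -0.037.

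Of the remaining TCA cycle members, citrate synthase (Cs) had a log2 fold change of -0.052. The 3 subunits of NAD-dependent isocitrate dehydrogenase, Idh3a, Idh3b and Idh3g, had -0.032, -0.099 and -0.093. With 1 line left out, Idh3a ran from -0.087 to 0.022, through 0, Idh3b from -0.13 to -0.050 and Idh3g from -0.13 to -0.026. Dlst, the E2 subunit of 2-oxoglutarate dehydrogenase, had -0.058. Succinyl-CoA ligase has a common alpha subunit, Suclg1 (0.052), and a GTP-forming and an ATP-forming beta subunit, Suclg2 (0.032) and Sucla2 (-0.039). None of these 8 reached an unadjusted p of 0.05.

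**Figure D3:**
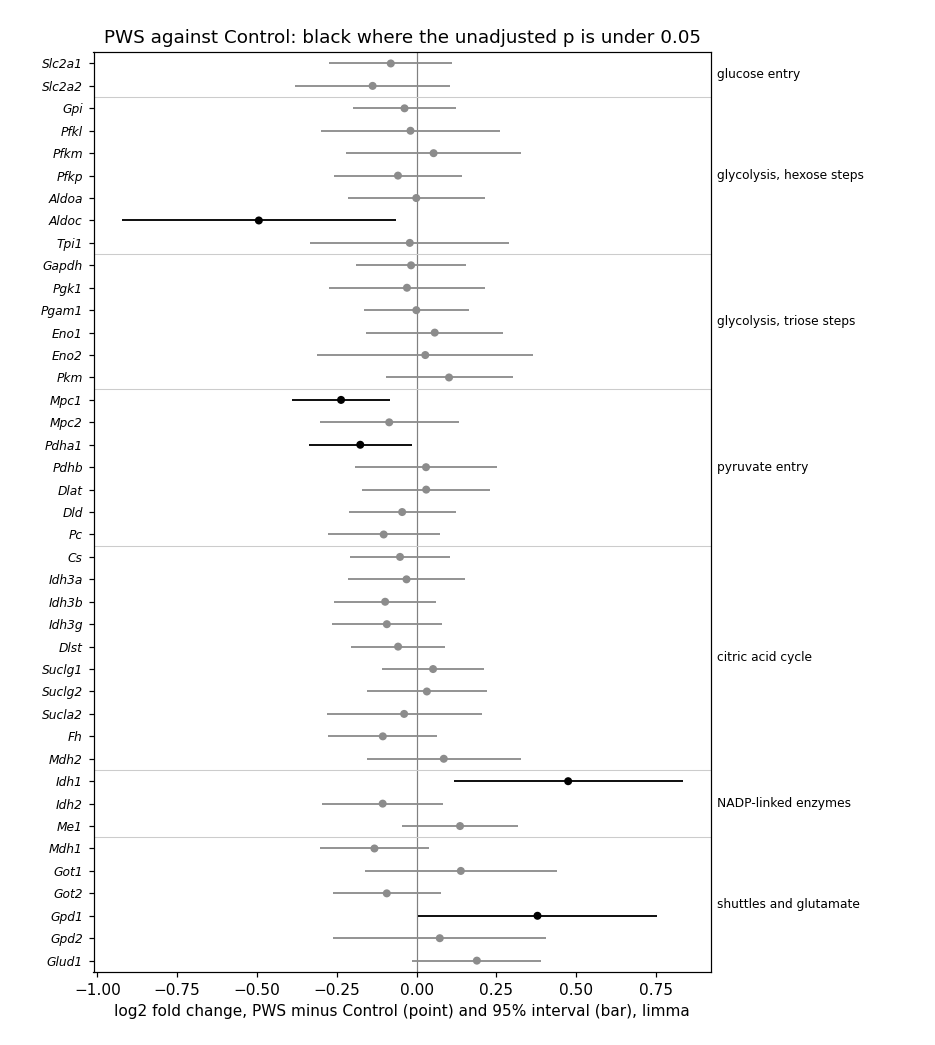
The log2 fold change of each of the 41 members, PWS minus Control (point, horizontal axis), with its 95% interval from limma (bar), grouped by role on the vertical axis. Black marks the 5 members with an unadjusted p under 0.05 (Aldoc, Mpc1, Pdha1, Idh1 and Gpd1), none of which passed adjustment, and all intervals of the TCA cycle members include 0.

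The next 3 members make or use NADPH outside or beside the cycle: Idh1, the cytosolic, and Idh2, the mitochondrial NADP-dependent isocitrate dehydrogenase, and Me1, the cytosolic malic enzyme. Idh1 had the highest log2 fold change of the 41 members. It stood at 1556, 1032 and 1542 normalized counts in Control and 1725, 2038 and 1891 in PWS lines (log2 fold change 0.47, SE 0.16, 95% interval 0.12 to 0.83, adjusted p = 0.341). All PWS lines were above all Control lines, and Control line 2 was far below both other Control lines. Without line 2 the log2 fold change was 0.28.

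Idh2 had 5111, 5666 and 5115 normalized counts in Control and 4969, 5327 and 4487 in PWS lines (log2 fold change -0.11, SE 0.083, adjusted p = 0.670). Control line 2 was the highest of the 6 lines for Idh2, as it was the lowest for Idh1, and the groups overlap. The log2 fold change of Idh2 was -0.057 without line 2, -0.16 without line 19-1 and -0.04 without line 19-4. The ratio of Idh1 to Idh2 was 0.304, 0.182 and 0.301 in Control and 0.347, 0.382 and 0.421 in PWS lines. Each PWS line was above each Control line in this ratio. On the log2 scale it was -1.97 ± 0.42 in Control and -1.39 ± 0.14 in PWS lines (SD, n = 3). Me1 had a log2 fold change of 0.14 (adjusted p = 0.556), with lines 19-1 and 19-4 above every Control line and line 3 among them. With 1 line left out, the log2 fold change of Me1 ran from 0.076 to 0.21.

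The shuttle enzymes are Mdh1 and Got1 on the cytosolic and Got2 on the mitochondrial side of the malate-aspartate shuttle, cytosolic Gpd1 and mitochondrial Gpd2 of the glycerol-phosphate shuttle, and Glud1, glutamate dehydrogenase, which feeds 2-oxoglutarate into the cycle. Gpd1 was highest in fold change, with 5578, 4100.4 and 5145 normalized counts in Control and 6168, 5257 and 7978 in PWS lines (log2 fold change 0.38, SE 0.16, 95% interval 0.0046 to 0.75, adjusted p = 0.437). Control line 5-9 exceeded PWS line 19-1, so the groups overlap, and line 19-4 stood above all others. Without line 19-4 the log2 fold change was 0.22, and without Control line 2 it was 0.25.

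Mdh1 was the lowest of the shuttle enzymes, with 10659, 9608 and 10773 in Control and 9915, 9021 and 9373 in PWS lines (log2 fold change -0.13, SE 0.075, adjusted p = 0.546). PWS lines 19-1 and 19-4 were below every Control line, and line 3 was above Control line 2. The ratio of Mdh1 to Mdh2 was 2.19, 1.96 and 2.13 in Control and 1.98, 1.95 and 1.51 in PWS lines, where PWS line 3 overlaps Control line 2. Got1 had a log2 fold change of 0.14, Got2 of -0.093 and Gpd2 of 0.073. With 1 line left out those of Got1 and Gpd2 ran from -0.011 to 0.24 and from -0.07 to 0.24, through 0. That of Got2 ran from -0.13 to -0.028. Glud1 had 0.19 (95% interval -0.013 to 0.39, adjusted p = 0.468), and of the 3 PWS lines only line 3 lay below the highest Control line, 2.

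In all, 9 pairs of partner or isoenzyme genes were compared as ratios within a line, a choice made after the values were seen. The groups did not overlap for 2 of the 9, Idh1 to Idh2 and Pdha1 to Pdhb. Idh1 and Pdha1 each separate without overlap by themselves, so these 2 ratios are not further results. Of all tested genes, 8.43% separate upward and 9.01% downward, and no such share was computed for ratios. Only 59.3% of the Pdha1 reads were unique. For Aldoc to Aldoa, Eno2 to Eno1, Got1 to Got2 and Gpd1 to Gpd2, as for Mdh1, Mpc1 and Slc2a1 with their partners above, the groups overlap. These ratios do not depend on the size factor of a library, and they were not tested.

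**Figure D4:**
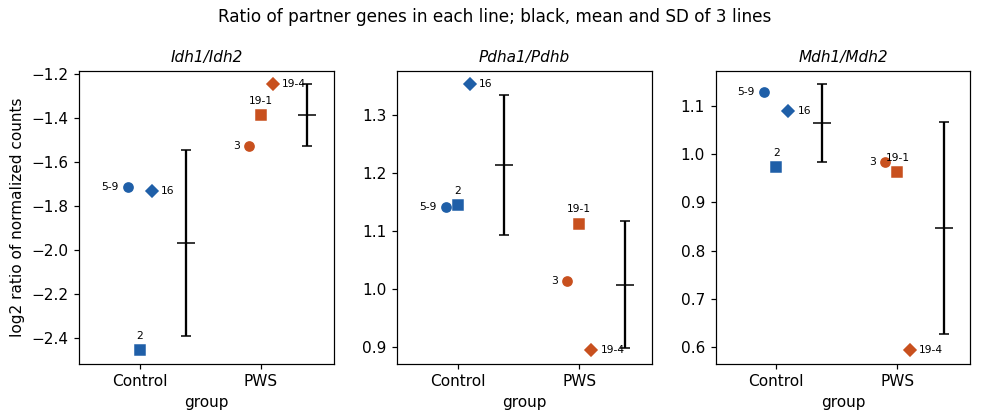
Each panel plots, on the vertical axis, the log2 ratio of the normalized counts of a gene to its partner in each of the 3 Control (blue) and 3 PWS (orange) lines, labelled by line; black marks show mean and SD. The PWS lines lie above the Control lines for Idh1/Idh2 and below them for Pdha1/Pdhb, and PWS line 3 overlaps Control line 2 for Mdh1/Mdh2.

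Reads shared between genes affect 7 of the 41 members, for which under 80% of the reads were unique, whereas for the other 34 at least 95% were. Tpi1 had 0.0534% unique reads and shared the rest with LOC100911515, and Eno2, the neuronal enolase, had 0.0297% and shared the rest with LOC100911625, so each value above is that of the pair. When RSEM divided the reads, Eno2 took 250.5, 226.6 and 307.2 normalized counts in Control and 392.3, 316.4 and 324.5 in PWS lines (log2 fold change 0.40, adjusted p = 0.403 by limma). The sum of Eno2 and its copy in the RSEM values had a log2 fold change of 0.039, near the 0.027 of the main values. Which copy the reads came from cannot be told apart in these tables. For Tpi1 the RSEM value was -0.027. The others were Pkm (50.8% unique), Pdha1, Gapdh (70.1%), Eno1 (71.0%) and Dlat (77.0%), and among them only Dlat changed sign when unique reads alone were used.

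The pathway around the members was covered by a second list. It named 96 further genes of hexose transport and phosphorylation, glycolysis isoforms and regulators, pyruvate dehydrogenase regulation, the TCA cycle, shuttle carriers, the pentose phosphate pathway, glycogen and transcriptional regulators, of which 90 had rows and 76 were tested. None passed an adjusted p of 0.05 under limma (0.257% of all genes did), and 3 passed an unadjusted p of 0.05, where 11.3% of all genes did. Tigar and Pdp1 were lower in PWS lines. Tigar, a fructose-2,6-bisphosphatase, had 1327, 1537 and 1367 normalized counts in Control and 1265, 1212 and 1196 in PWS lines (log2 fold change -0.20, SE 0.079, adjusted p = 0.407). Pdp1, the phosphatase that switches pyruvate dehydrogenase on, had 683, 985 and 715 in Control and 604, 629 and 600.1 in PWS lines (log2 fold change -0.36, SE 0.14, adjusted p = 0.395), where Control line 2 was the highest. Myc, a transcription factor with many glycolytic targets, was higher, with 2136, 2380.2 and 1881 in Control and 2598, 2246 and 2755 in PWS lines (log2 fold change 0.25, SE 0.11, adjusted p = 0.439). Without line 2 the log2 fold change of Pdp1 was -0.19, and without line 16 that of Myc was 0.16. Over the 76 genes the groups do not overlap for 2 that were higher (8.43% of all genes) and 8 that were lower (9.01%), Tigar and Pdp1 among the latter, and they overlap for Myc. The median log2 fold change of the 76 genes was -0.037.

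Hk1, a hexokinase with high affinity for glucose that mature beta-cells keep low, had no read in any of the 6 lines, and neither had Slc2a10, Pgk2, Pgam2, Pdha2, Pdk4 and Pck1. An observed 0 still permits as many as 3 reads, which correspond to 2.73 to 3.59 normalized counts. Whether such a 0 comes from the annotated row or from absence of the transcript was not tested. Of 11 tested targets of HIF-1 outside glycolysis, 5 were above and 6 below 0, and P4ha2, a collagen prolyl hydroxylase subunit, was the 1 with an unadjusted p under 0.05 (11.3% of all genes), at 687, 706 and 805 in Control and 699, 513 and 459 in PWS lines (log2 fold change -0.41, SE 0.15, adjusted p = 0.383). Control line 2 was the lowest Control line for 6 of these 11 (38.5% of all tested genes) and line 16 the highest for 8 (32.8%). Line 2 was the highest Control line for 3 of the 11, Vegfa among them, and line 16 the lowest for 1. These counts were made after the values were seen and were not tested.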

How the data were processed

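Total RNA-seq of 3 Control and 3 PWS INS-1 lines in 7.5 mM glucose was analysed. The authors trimmed reads with cutadapt, aligned them with STAR 2.7.0e to the rat genome with transgenes added, and counted them with HTSeq 0.11.2 or RSEM 1.3.1, per the submitters' processing notes. The deposited values are a signal, counts that the authors divided by DESeq2 size factors; 100% of the values above 0 in both HTSeq tables lay within 0.001 of a whole multiple of their column's smallest value, which gave the reads. The tables' fold changes, standard errors and p-values from the authors' own comparison were not used.

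PWS was set against Control with limma 3.58.1 (R 4.3.3), using eBayes with a mean-variance trend, on log2(normalized count + 1). HTSeq values in which a read is counted at every feature it aligns to (nonunique all) were used, for the 15579 genes averaging 5 or more. P-values were adjusted by Benjamini-Hochberg at 0.05. edgeR 4.0.16 and DESeq2 1.42.0 on the recovered reads, other pseudocounts (0.5 and 5), filters (genes with any read, genes averaging 50 or more), TMM scaling, eBayes without trend, unique reads only (nonunique none), RSEM, leaving out each line, the replicate number as a block, 19-1 and 19-4 averaged, and an adjusted p under 0.1 were alternatives. The fits were tested on simulated data. Members and lists were chosen with earlier results of these data known. Values in every line were given for Slc2a1, Slc2a2, Gpi and Gapdh, for the highest and lowest fold change of each role, and for members with an unadjusted p under 0.05; Eno2 and the partner ratios were added after their values were seen. Genes sharing all their reads were found by shared read totals within 1%, a tolerance set after values were seen. Promoters are from RefSeq, GRCr8. Intervals cover the spread between lines, and floors cover counting error only. A gene of the wider pathway list is not reported here.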

Additional observations from a re-analysis of the deposited data

How the results depend on the processing

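No member passed an adjusted p of 0.05 under any of the 18 alternatives, nor at an adjusted p under 0.1, and the smallest adjusted p of a named member was 0.136, for Idh1 under DESeq2. Members past an unadjusted p of 0.05 numbered 5 in the main analysis, 3 with eBayes without trend, and 2 to 6 with each line left out in turn. The lowest was without Control line 16. The members' median log2 fold change of -0.030 ranged from -0.079, without Control line 2, to 0.00070 with a line left out. Over all tested genes 40 passed in the main analysis, 9 with a mean of at least 50, 228 under DESeq2, 16 with unique reads only, 12 with RSEM, and 33 to 55 with a line left out. The same-numbered lines did not deviate together (correlations 0.0035, 0.047 and 0.0051), so the numbers do not pair the lines; with the replicate block 36 of all genes, 0 members at the adjusted and 5 at the unadjusted threshold passed. Of 306 values of the 17 named members under an alternative, 294 kept their sign and 12 turned it, all for members with a log2 fold change of up to 0.085 in size: Dlat (0.030; -0.012 with unique reads, -0.016 to 0.094 with a line left out), Gapdh (-0.017; 0.0089 with RSEM, 0.0013 with 19-1 and 19-4 averaged, -0.054 to 0.025 with a line left out), and, only with a line left out, Gpi (-0.082 to 0.00070), Mdh2 (-0.037 to 0.18), Pfkm (-0.091 to 0.15) and Pgk1 (-0.14 to 0.038). The cause was not tested. Tpi1 and Eno2 have too few unique reads to be tested with unique reads only. Counted at every feature they align to, reads numbered 26016478 to 36084261 per line, and unique reads alone numbered 17530149 to 23022637. At this depth, with 3 lines a group and 2 of the PWS lines from 1 clone, changes smaller than the intervals given were not detectable.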
